A study of Glycine max with 23 samples.

Results

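Young soybean pods were compared with leaves in their small RNA content. The comparison covered 584 of the 2839 distinct small RNA sequences in the deposited table, namely those with a mean of 5 or more TP5M (tags per 5000000 tags sequenced) over 3 pod and 6 leaf libraries. The pods were of weeks 1, 2 and 3, all labelled as the start of seed development. The leaves were the new leaf at germination, the new and the old leaf at the trefoil stage, the new and the old leaf at flower bud differentiation, and a senescent leaf. All plants were soybean (Glycine max) cv. Williams 82, grown at an experimental station in Beijing with no treatment, and the whole series holds 23 small RNA libraries. Flowers of the florescence stage were sampled again on a different date. No pod or leaf library repeats another. The spread within pods is therefore a spread between weeks, the spread within leaves is one between ages and stages, and every p-value below sets the organ difference against those spreads. Whole organs were sequenced, so a sequence made in fewer cells and one made at a lower level per cell cannot be told apart. No small RNA is known to define pod or leaf cells, so the organ labels could not be checked against markers.

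MicroRNAs (miRNAs) are small RNAs, mostly of 21 or 22 nucleotides (nt), cut by a Dicer-like enzyme from the arms of a hairpin transcript and loaded into an Argonaute protein, which they guide to transcripts with a matching site. The strand from one arm usually accumulates and its partner on the other arm is usually scarce. In plant shoots miR156 represses SPL genes, which promote the adult phase, and miR172 represses AP2-like genes, which delay flowering and act in floral organs. The developing pod wall is a modified leaf that encloses the seeds, and miR167, miR166, miR164 and miR394 target regulators of organ and meristem development in Arabidopsis. Names below are those of the deposited table, where a number after M marks a hairpin locus and 5p or 3p its arm. A family was taken from a sequence's own miR name or older name, from 18 shared bases with a named miRNA, or from its hairpin.

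The sequences that carry the comparison are given 5′ to 3′ as deposited in DNA letters, with the seed (bases 2 to 8) in capitals. The miR1512 set is shown because all its tested members rose in pods:
miR1512c: tAACTGAAcattcttagagcat
miR1512b: tAACTGGAaattcttaaagcat
miR1512a: tAACTGAAaattcttaaagtat
M0766-5p: aACTGGAAattcttaaagcatt
M0766-3p: gCTTTAAGaatttcagttatg
Counted from 1 at the 5′ end, miR1512b differed from miR1512c by G7A, A9C and A17G, and from miR1512a by G7A and C20T. The miR1512c and miR1512a seeds were therefore identical, whereas that of miR1512b differed, and M0766-5p was the miR1512b sequence moved by 1 base.

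Sequences of the miR394 hairpins are shown because products of both arms of one of them rose in pods:
miR394a-5p: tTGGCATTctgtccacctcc
miR394b-3p: aGGTGGGCatactgtcaact
M5447-5p: aAGGGTTGctaacagagttta
M5447-3p: aGTTCTGTtgtctgctctttg
M6352-3p: aGCTCTGTtggctacactttg
The 3′ arm products M6352-3p and M5447-3p, from chromosomes 17 and 14, differed by C3T, G11T, A14G and A16T, and so had different seeds.

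The miR167 and miR172 forms are shown because members of 1 family that differ at their ends had unlike pod values:
miR167c: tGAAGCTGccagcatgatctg
miR167g: tGAAGCTGccagcatgatctga
miR167a: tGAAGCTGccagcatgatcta
miR167e: tGAAGCTGccagcatgatctt
M4031-5p: tGAAGCTGccagcatgatctta
miR172c: gGAATCTTgatgatgctgcag
miR172a: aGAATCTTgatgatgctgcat
miR172k: tGAATCTTgatgatgctgcat
All 5 miR167 forms have 1 seed, and miR167c differs from miR167a by G21A and from miR167e by G21T. The 3 miR172 forms also have 1 seed, and miR172c differs from miR172a by G1A and G21T.

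The other sequences that passed the test in either direction are these:
miR862b: gCTGGATGtctttgaagga
miR5225: cCTGTCGTaggagagatgacgc
M1341-5p: gGAATGTCatctggttcgaga
M5974-3p: gTTGAGCAagttgaagatgaa
M6832-3p: tCTGAAGTgtttgggggaacc
M5023-3p: tTGGGATGgagttgaccttgaa
M7819-3p: cTCAAAAGagcttatgacttgt
M5241-3p: cTGGTTTGaaatatatgggtga
miR156c: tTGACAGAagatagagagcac
M7631-3p: tCAGGTCAtcttgcagcttca
M3392-3p: gCATACAGggagtcaagcaga

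Of the 584 sequences, 17 were higher and 5 were lower in pods than in leaves at an adjusted p under 0.05 (limma on log2(TP5M + 5), Benjamini-Hochberg over the 584). The 22 calls were 3.77% of the sequences tested. Without adjustment, 124 sequences (21.2%) had p under 0.05, with 91 higher and 33 lower in pods. Every pod lay above every leaf for 73 sequences and below every leaf for 22, together 16.3% of those tested, and all 22 called sequences were among them. Differences below are pod minus leaf on the log2(TP5M + 5) scale, which understates the change of low sequences. Over all 584 sequences the median difference was 0.13, with 328 positive and 256 negative. Scaling by TMM, a trimmed-mean factor for each library, moved that median to 0.05 and gave the same number of calls.

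The depth was close in the groups. The recovered totals were about 4880000 to 5930000 tags per pod library and 4160000 to 6460000 tags per leaf library, and the table's sequences made up 8.77 to 9.68% of the tags in pods and 4.61 to 15.2% in leaves. A single tag was worth 0.844 to 1.02 TP5M in pods and 0.774 to 1.2 TP5M in leaves. A value of 0 thus allows a level of up to 2.53 to 3.07 TP5M in a pod library and 2.32 to 3.61 TP5M in a leaf library (3 tags, counting error only). The pods were also more alike than the leaves, with a median SD over sequences of 0.39 in pods and 1.05 in leaves on the log2 scale. The filter was passed by 52 sequences on their pod mean alone and by 91 on their leaf mean alone, and 12 of the 17 sequences called higher had a leaf mean under 5 TP5M. M5674-5p stood just inside the filter at a mean of 5.001 TP5M and M5084-5p just outside at 4.982 TP5M.

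**Figure D1:**
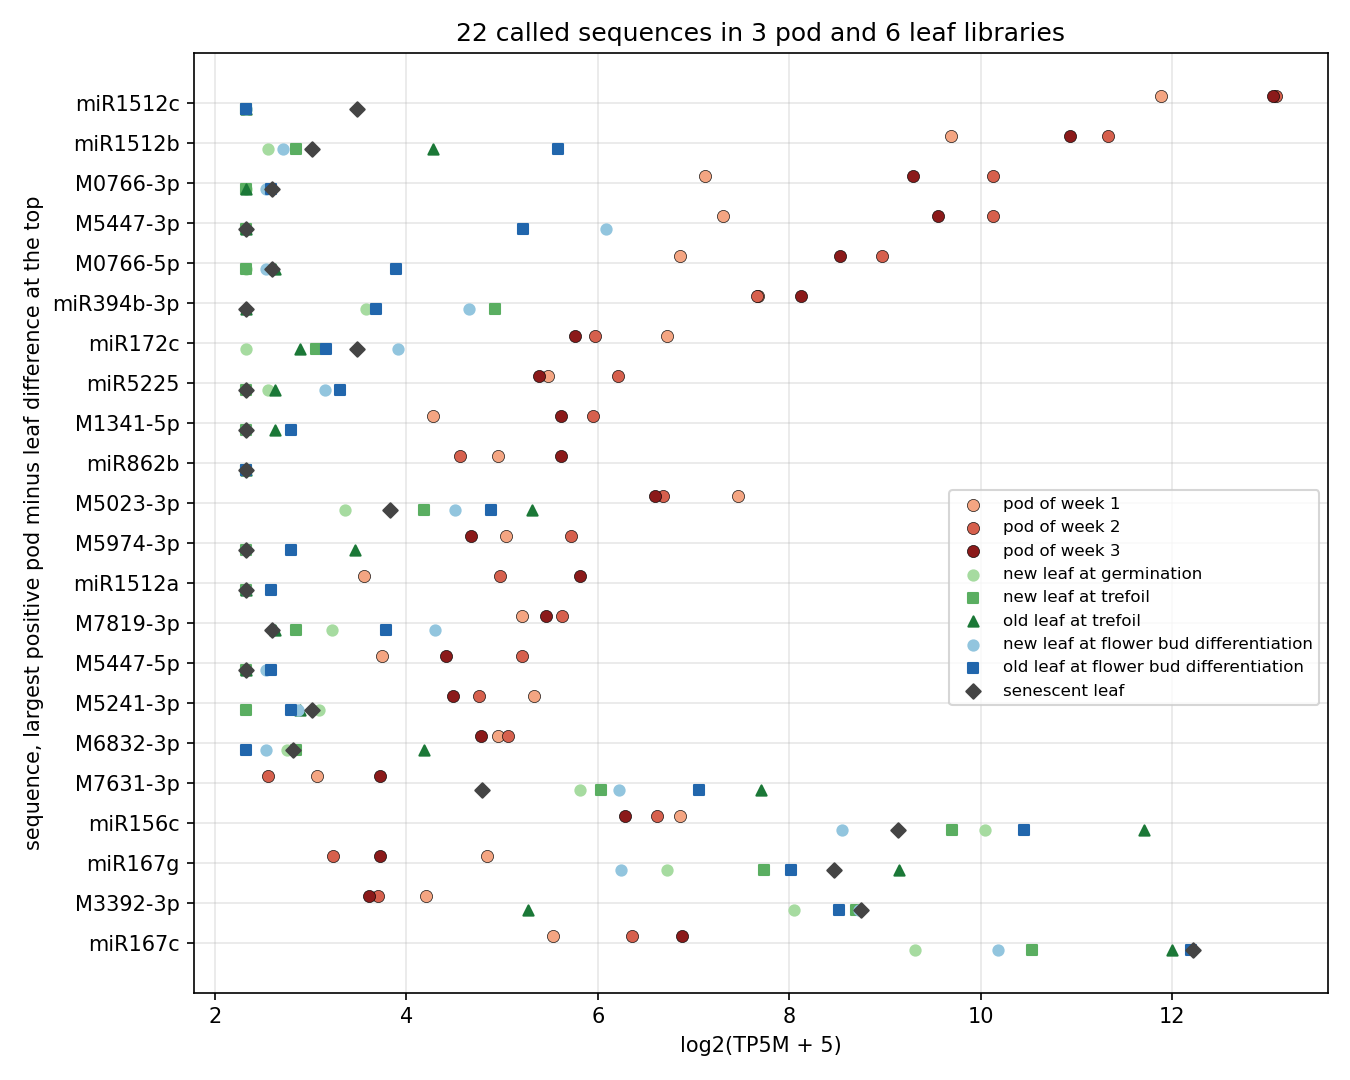
Values of the 22 called sequences on the log2(TP5M + 5) scale (horizontal axis), one row per sequence, for the 3 pods (circles in reds) and the 6 leaves (green, blue and grey symbols). In every row the pods lie wholly to one side of the leaves, with miR1512c the farthest apart.

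The miR1512 family, known from legumes, showed the largest rise. All 5 tested members were higher in pods, and their summed level was 4851.3, 12907.7 and 11521.5 TP5M in pods of weeks 1, 2 and 3, against 0.9 to 54.9 TP5M in the 6 leaves. miR1512c had 3779.6, 8700.3 and 8530.5 TP5M in the pods of weeks 1, 2 and 3, whereas it was at 0 in 5 leaves and at 6.18 TP5M in the senescent leaf. Its difference was 10.16 ± 0.57 (SE; limma adjusted p = 1.52e-06). It was thus not detected at this depth in any leaf but the senescent one, and every pod had it at a high level.

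miR1512b, the next most abundant member, had 819, 2565 and 1950.3 TP5M in pods of weeks 1, 2 and 3, against a lowest, median and highest leaf value of 0.87, 2.65 and 43.1 TP5M. Its mean was 163-fold higher in pods (1778 ± 886 TP5M, n = 3) than in leaves (10.9 ± 16.6 TP5M, SD, n = 6), and its difference was 7.15 ± 0.79 (limma adjusted p = 0.000365). The old leaf at flower bud differentiation was the highest leaf for this member and for M0766-5p and miR1512a as well. The partner strand M0766-3p reached 134, 1119 and 624 TP5M in pods of weeks 1, 2 and 3, and at most 1.03 TP5M in leaves (difference 6.41 ± 0.61; limma adjusted p = 0.00018). Both arms of this hairpin, and the shifted M0766-5p (difference 5.41), were thus higher in pods. miR1512a was scarce, with 6.75, 26.6 and 51.2 TP5M in pods of weeks 1, 2 and 3 and at most 0.98 TP5M in leaves (difference 2.42 ± 0.46; limma adjusted p = 0.0109). Its call was lost with new leaves only (2.46; adjusted p = 0.0545) and, at 2.38, with a term for 6 libraries that share sequences, described last (adjusted p = 0.0536), or within them (adjusted p = 0.117). All 5 members were lowest in the week 1 pod, and no pod overlapped a leaf.

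The miR1512 loci lie on chromosomes 2 and 18 (coordinates as in the deposited table, whose genome build is not given in the sources used here). The miR1512c hairpin spans chromosome 2, 8609646 to 8609749, on the minus strand. The M0766 hairpin, 8618688 to 8618782 on the same strand, overlaps that of miR1512b (8618693 to 8618781), and 8943 bases separate the miR1512b and miR1512c hairpins. miR1512a lies on chromosome 18, 60819566 to 60819660, on the plus strand. Members of the family share sequence and the 3 products of the M0766 locus share a transcript, so they are not independent of each other. The pods also stood apart from the 14 libraries of other organs for 4 of these 5 members. miR1512c ranged from 382 to 1298 TP5M in seed libraries and from 0.94 to 1272 TP5M in flower libraries, and the pods exceeded all other libraries for miR1512c, miR1512b, M0766-5p and M0766-3p. M5974-3p and M7819-3p were the remaining called sequences for which that held, 6 of 17 in all, beside 12 of all 584 sequences.

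In the miR394 family 3 products of a hairpin on chromosome 14 were higher in pods. In Arabidopsis miR394 targets the F-box gene LCR, which acts in the shoot meristem and in leaf shape. All 9 tested members had a positive difference. In 6 of the 9 every pod lay above every leaf, which held for 12.5% of all 584 sequences. Of the 9, 3 were called higher, as were 2.91% of all 584. The median difference of the 9 was 2.31, against 0.13 over all sequences. The summed level of the 9 was 1591.5, 2745.2 and 2081.4 TP5M in pods of weeks 1, 2 and 3, against 25.7 to 906.1 TP5M in leaves. The 2 highest leaf sums were those of both leaves at flower bud differentiation, 906.1 TP5M in the new leaf and 904.2 TP5M in the old leaf.

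miR394b-3p, the partner strand of the mature miR394 on this hairpin (chromosome 14, 48984878 to 48984981, minus strand), had 199, 198 and 275 TP5M in pods of weeks 1, 2 and 3. Its lowest, median and highest leaf values were 0, 7.42 and 25.4 TP5M, so its mean was 22.2-fold higher in pods (difference 4.24 ± 0.68; limma adjusted p = 0.00457). The same locus gave M5447-3p, with 154, 1117 and 748 TP5M in pods of weeks 1, 2 and 3, against 62.7 and 32.4 TP5M in the new and the old leaf at flower bud differentiation and 0 in the 4 other leaves. Its difference was 5.57 ± 1.05 (limma adjusted p = 0.0109), and it was no longer called without the week 3 pod (5.29; adjusted p = 0.0737) or the week 2 pod (5.00; adjusted p = 0.106). The call was lost with new leaves only (5.42; adjusted p = 0.0524). At 4.46 it was also lost with a term for the 6 libraries that share sequences (adjusted p = 0.0536) or within them (adjusted p = 0.12). M5447-5p from the other arm had 8.44, 31.9 and 16.4 TP5M in pods of weeks 1, 2 and 3 and at most 0.98 TP5M in leaves (difference 2.06 ± 0.37; limma adjusted p = 0.00781). Its call was lost, at 1.98, with a term for the 6 libraries that share sequences (adjusted p = 0.0515) or within them (adjusted p = 0.0863). With edgeR on recovered reads miR394b-3p and M5447-3p kept differences of 4.46 and 5.39 but were not called (adjusted p = 0.121 and 0.163), where 12 sequences (2.05%) were called in all.

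The mature miR394a-5p, which the deposited table gives at 7 loci, separated the organs less. It had 532, 453 and 273 TP5M in pods of weeks 1, 2 and 3, against a lowest, median and highest leaf value of 5.15, 95.1 and 235 TP5M (difference 2.72 ± 1.03; limma adjusted p = 0.155). M6352-3p, from a miR394 hairpin on chromosome 17, had 588, 680.1 and 630.0 TP5M in pods of weeks 1, 2 and 3, against leaf values of 2.4, 47.9 and 404 TP5M (lowest, median and highest), with a difference of 3.62 ± 1.1 (limma adjusted p = 0.104). The groups did not overlap for either sequence, and the highest leaf in both was the new one of the flower bud stage. M1574-3p, from another miR394 hairpin, had 22.8, 139 and 59.4 TP5M in pods of weeks 1, 2 and 3, against 2.06 to 544 TP5M in leaves, where the old leaf at flower bud differentiation was above every pod (difference 1.32; limma adjusted p = 0.674).

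A short miR862 form was detected in pods and in no leaf. miR862b had 26.2, 18.6 and 44.0 TP5M in pods of weeks 1, 2 and 3 and was at 0 in all 6 leaves, so its pod mean was at least 8.21-fold higher, taking the largest 3-tag level of a leaf library as the floor (difference 2.72 ± 0.34; limma adjusted p = 0.000782). Its 19 bases are contained in miR862a and in M3000-3p, which leaves did contain. miR862a had 163, 129 and 185 TP5M in pods of weeks 1, 2 and 3, against 2.4, 7.94 and 93.7 TP5M (lowest, median and highest leaf; difference 2.93, limma adjusted p = 0.113). All 4 tested miR862 members were positive, with a median of 2.89, and for miR862a and both M3000 arms the highest leaf was again the new one of the flower bud stage.

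Most other sequences called higher were of low abundance, and each is given by its values. miR5225, a legume miRNA, had 39.7, 69.2 and 36.9 TP5M in pods of weeks 1, 2 and 3 and at most 4.9 TP5M in leaves, a 26.9-fold higher mean (difference 2.98 ± 0.4; limma adjusted p = 0.00163). Flower libraries reached 103 TP5M for it and seed libraries at most 1.19 TP5M. M1341-5p, a 5′ arm product of a miR166 hairpin on chromosome 3, had 14.3, 56.8 and 44.0 TP5M in pods of weeks 1, 2 and 3 and at most 1.96 TP5M in leaves (difference 2.83 ± 0.42; limma adjusted p = 0.00302). It was the only called member among 23 tested of miR166, which represses HD-ZIP III genes of organ polarity, and 13 of those 23 were positive. M5974-3p, from a miR5041 hairpin with 2 loci, had 27.9, 47.9 and 20.5 TP5M in pods of weeks 1, 2 and 3 and at most 6.01 TP5M in leaves (difference 2.55 ± 0.41; limma adjusted p = 0.00457). Its call was lost with edgeR on recovered reads (4.56; adjusted p = 0.0974) and within 6 libraries that share sequences, described last (2.28; adjusted p = 0.0835), where that of M1341-5p was lost too (2.70; adjusted p = 0.0672).

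M6832-3p, given an older miR395 name in the table, had 26.2, 28.4 and 22.5 TP5M in pods of weeks 1, 2 and 3, against 0, 1.9 and 13.2 TP5M (lowest, median and highest leaf; difference 2.02 ± 0.45, limma adjusted p = 0.0266). miR395 represses sulfate assimilation and transport genes, and M6832-3p was the only one of its 12 tested members that was called, with 6 positive and 6 negative. The 3 sequences without a family that were called higher, M5023-3p, M7819-3p and M5241-3p, are all 22 nt long and are described with that length class.

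Of miR156 and miR172, the pair of families that time phase change in plants, miR156c was lower and miR172c higher in pods, and no other member was called. Of 29 tested members 24 had a negative difference, with a median of -1.82. miR156 had 16 of 18 members negative, with a median of -1.84, and its summed level was 524.9, 766.1 and 825.6 TP5M in pods of weeks 1, 2 and 3, against 2224.9 to 16510.1 TP5M in leaves. The 2 old leaves had the highest sums, 16510.1 TP5M at trefoil and 11194.1 TP5M at flower bud differentiation. miR156c, an SPL-targeting form with 6 loci, had 111, 93.1 and 72.7 TP5M in pods of weeks 1, 2 and 3, against a lowest, median and highest leaf value of 369, 940.0 and 3330.1 TP5M, and fell by 3.35 on the log2 scale (SE 0.76; limma adjusted p = 0.029). Its pods were also below all 14 libraries of other organs.

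The miR156c call was lost without any 1 of the pods, with adjusted p from 0.0857 without week 1 to 0.179 without week 3 and differences between -3.48 and -3.19. It was also lost without the new leaf at trefoil, the old leaf at flower bud differentiation or the new leaf at germination (adjusted p = 0.0607, 0.0611 and 0.053). No filter (adjusted p = 0.13), edgeR on recovered reads (adjusted p = 0.0838) and edgeR with TMM factors (adjusted p = 0.06) lost it too. So did, at -3.65, a term for the 6 libraries that share sequences (adjusted p = 0.0539) and a fit within them (adjusted p = 0.103). M3552-3p, from the opposite arm of a hairpin that also gives miR156c, had 2.53, 0 and 0 TP5M in pods of weeks 1, 2 and 3, against leaf values of 1.03, 204 and 753 TP5M (lowest, median and highest; difference -4.62 ± 1.31, limma adjusted p = 0.0919). The senescent leaf, at 1.03 TP5M, was the only leaf that overlapped the pods. miR156a was listed at 0 in the week 1 pod and in the new leaf at trefoil, and at 323 and 264 TP5M in pods of weeks 2 and 3, with up to 8442 TP5M in leaves. Its close form miR156k, longer by 1 base at the 5′ end, had 11, 14.2 and 10.2 TP5M in pods of weeks 1, 2 and 3, and was likewise at 0 in the new leaf at trefoil and in no other leaf.

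miR172c was called higher, whereas the forms of miR172 with the same seed had negative differences. It had 100.4, 57.6 and 49.2 TP5M in pods of weeks 1, 2 and 3, against a lowest, median and highest leaf value of 0, 3.62 and 10.1 TP5M, so its mean was 16-fold higher in pods (difference 3.01 ± 0.46; limma adjusted p = 0.00372). Flower libraries had 109 to 256 TP5M of it. miR172a, with 3 loci, had 75.1, 123 and 115 TP5M in pods of weeks 1, 2 and 3, against 114, 542 and 1214 TP5M (lowest, median and highest leaf; difference -2.2 ± 0.82, limma adjusted p = 0.152). miR172k had 3.38, 1.77 and 1.02 TP5M in pods of weeks 1, 2 and 3, against 5.23, 24 and 152 TP5M in leaves, with no overlap (difference -2.21; limma adjusted p = 0.124). In the week 1 pod miR172c exceeded miR172a, whereas miR172a was the higher of the pair in the pods of weeks 2 and 3 and in every leaf.

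miR172c has 1 locus, on chromosome 18 (2968986 to 2969138, plus strand). M4341-5p, which the table gives at 3 loci, the opposite arm of the miR172c hairpin among them, had 227, 185 and 207 TP5M in pods of weeks 1, 2 and 3, against 0, 16.9 and 96.1 TP5M (lowest, median and highest leaf; difference 3.39 ± 0.9, limma adjusted p = 0.0699). Of the 11 miR172 members 8 were negative, among them M4097-5p, the most abundant, with 416, 684 and 606 TP5M in pods of weeks 1, 2 and 3 and up to 8364 TP5M in leaves. The miR172c call was lost with edgeR on recovered reads (difference 3.95; adjusted p = 0.0604) and with TMM factors added (3.83; adjusted p = 0.0547). It was also lost within the 6 libraries that share sequences, described last (2.83; adjusted p = 0.0548).

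miR167, which represses the auxin response factors ARF6 and ARF8, had the most sequences called lower. All 8 tested members had a negative difference. In 5 of the 8 every pod lay below every leaf, which held for 3.77% of all 584 sequences. Of the 8, 3 were called lower, as were 0.856% of all 584. The summed level of the 8 was 569.5 to 28239.3 TP5M in pods, against 4575.8 to 10554.0 TP5M in leaves, and the week 1 pod was above every leaf. miR167c, with 2 loci, had 41.4, 77.1 and 113 TP5M in pods of weeks 1, 2 and 3, against a lowest, median and highest leaf value of 634, 2788 and 4761 TP5M. It was 36.4-fold lower in pods (77.1 ± 35.7 TP5M, n = 3) than in leaves (2802 ± 1910.3 TP5M, SD, n = 6), with a difference of -4.82 ± 0.81 (limma adjusted p = 0.0059). It was called under all 23 alternatives run. The lowest leaf values were those of the new leaves, 634 TP5M at germination, 1155 TP5M at flower bud differentiation and 1478 TP5M at trefoil.

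miR167g, which is miR167c with 1 more base at its 3′ end, had 23.6, 4.43 and 8.19 TP5M in pods of weeks 1, 2 and 3, against 70.5, 232 and 562 TP5M (lowest, median and highest leaf; difference -3.79 ± 0.77, limma adjusted p = 0.017). It was not called without the week 3 pod (-3.68; adjusted p = 0.114) or the week 2 pod (-3.44; adjusted p = 0.128), nor with edgeR on recovered reads (-4.40; adjusted p = 0.0893). The miR167g call was also lost with TMM factors added to edgeR (adjusted p = 0.06) and with no filter (adjusted p = 0.0953). At -3.87, a term for the 6 libraries that share sequences (adjusted p = 0.0536) or a fit within them (adjusted p = 0.0917) lost it too. M7631-3p, the 3′ arm product of a miR167 hairpin, had 3.38, 0.89 and 8.19 TP5M in pods of weeks 1, 2 and 3, against leaf values of 22.6, 65.2 and 204 TP5M (difference -3.16 ± 0.68; limma adjusted p = 0.0242). Its call was lost without any 1 of the pods (adjusted p from 0.0844 without week 3 to 0.197 without week 2) and without the new leaf at trefoil (adjusted p = 0.0556). A pseudocount of 20 (adjusted p = 0.0618) and no filter (adjusted p = 0.0791) lost it too. So did edgeR on recovered reads (adjusted p = 0.0974) and edgeR with TMM factors (adjusted p = 0.0681).

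The forms that end in other bases split the pods by week. miR167e had 9603 TP5M in the week 1 pod, above every leaf, and 125 and 70.7 TP5M in the pods of weeks 2 and 3, below every leaf (772 to 1519 TP5M). M4031-5p, 1 base longer, did the same, with 18263, 184 and 88.1 TP5M in pods of weeks 1, 2 and 3, against 1925 to 3563 TP5M in leaves. Both were therefore not called with all 3 pods (differences -1.28 and -1.92; limma adjusted p = 0.646 and 0.472). Without the week 1 pod both were called lower, at -3.48 (adjusted p = 0.0195) and -4.29 (adjusted p = 0.00404). With edgeR on recovered reads of all 3 pods, miR167e and M4031-5p had positive differences of 1.52 and 1.21 (adjusted p = 0.489 and 0.602). Flower libraries had 3126 to 10495 TP5M of miR167e and seed libraries 20400.0 to 34908 TP5M. miR167a, ending in A, was steady over the pods at 265, 289 and 279 TP5M in weeks 1, 2 and 3, just under the leaf range of 292 to 1099 TP5M (difference -1.22; limma adjusted p = 0.275).

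M3392-3p, a sequence of 1 locus on chromosome 9 with no family, was the remaining sequence called lower. It had 13.5, 7.98 and 7.17 TP5M in pods of weeks 1, 2 and 3, against a lowest, median and highest leaf value of 33.6, 387 and 425 TP5M, a mean 33.4-fold lower in pods (difference -4.17 ± 0.84; limma adjusted p = 0.017). The pods were below all other libraries. The old leaf at trefoil was far below the other leaves, which had 261 to 425 TP5M. The call was lost without any 1 of the pods, with adjusted p = 0.112 without week 3 or week 2 and 0.0601 without week 1. It was also lost with no filter (adjusted p = 0.0775) and, at -3.67, with a term for the 6 libraries that share sequences (adjusted p = 0.0804) or within them (adjusted p = 0.12).

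**Figure D2:**
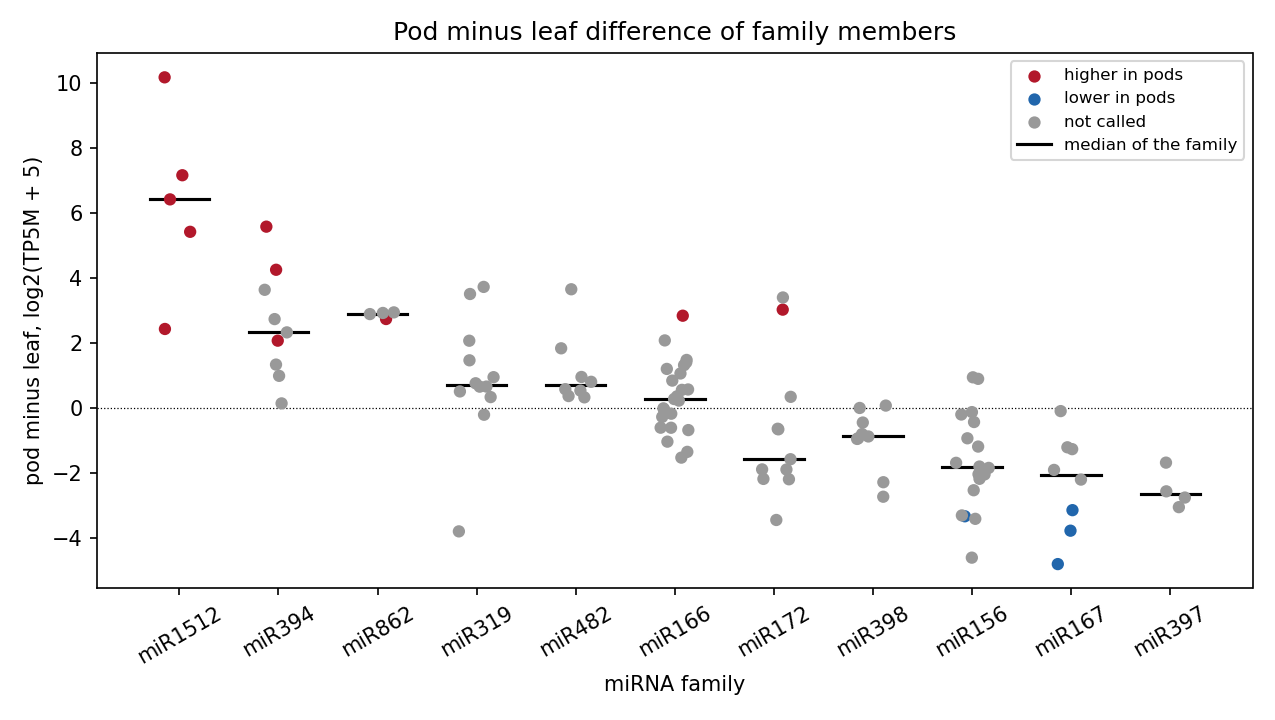
Pod minus leaf difference on the log2(TP5M + 5) scale (vertical axis) of each tested member of 11 families, with red and blue points for members called higher and lower in pods, grey for members not called, and bars for family medians. All miR1512, miR394 and miR862 members lie above 0 and all miR167 and miR397 members lie below 0.

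No family had calls in both directions, and 10 of the 98 tested families had any. Families outside those 10 were described after their values were seen. miR397, which represses copper-containing laccases, had all 4 members negative, with a median of -2.67 and none called. Its summed level was 87.8, 39.0 and 60.4 TP5M in pods of weeks 1, 2 and 3, against 37.2 to 4781.9 TP5M in leaves. The leaves split, since both leaves at flower bud differentiation had 37.2 and 93.2 TP5M, near the pods, and the 4 others had 811.2 TP5M or more. miR482, which represses NLR defence genes, had all 8 members positive with a median of 0.68 and none called. miR319, which represses TCP genes, had 10 of 12 positive, and its forms alternated between libraries. miR319d had 2856, 3077 and 0 TP5M in pods of weeks 1, 2 and 3, and miR319h was listed at 0 in every pod and at up to 873 TP5M in leaves. miR319 forms differ by single bases or at their ends, and no source used here says how tags were split among near-identical forms, which makes single miR319, miR156 and miR166 forms uncertain.

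Lists of families with known roles were counted in the same fit, beside the 2.91% of all sequences called higher and the 0.856% called lower. The meristem and organ shape list (miR164, miR165, miR166, miR171, miR319, miR394 and miR396) had 4 of 79 members called higher, which were the 3 of miR394 and M1341-5p, and a median of 0.50. The auxin list (miR160, miR167, miR390 and miR393) had 3 of 28 called lower, all miR167, none higher, and a median of -0.18. Legume families had 6 of 53 called higher, the 5 of miR1512 and miR5225, with a median of 0.23. The nutrient list had 1 of 54 called higher, the miR395-type M6832-3p, with a median of -0.07. No member was called among the 21 of the copper list (median -0.89, 18 negative), the 30 regulators of defence genes (0.31, 24 positive), the 11 of the small RNA machinery list (-0.44, 8 negative) or the 8 regulators of MYB genes (-0.05). Families reported in phloem sap, listed for vascular content, had 1 of 103 called higher and 4 called lower, with 72 negative and a median of -0.45. The part of vascular content in the lower calls was not tested. TMM scaling left the number of calls of every list as it was.

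The most abundant sequences did not separate pods from leaves. miR159a-3p, which represses GAMYB-like genes, was the highest of all, with 173960.0, 180930.0 and 168780.0 TP5M in pods of weeks 1, 2 and 3, against 89406 to 233710.0 TP5M in leaves (difference 0.22 ± 0.32; limma adjusted p = 0.766). miR166a-3p followed with 56559, 33686 and 29319 TP5M in pods of weeks 1, 2 and 3, against 22232 to 56322 TP5M in leaves (difference 0.26). The 10 most abundant sequences included miR168a, which represses AGO1, miR1507a and M4779-5p of the same family, miR2118a-5p, miR396b-5p, miR396i-3p, gso-miR3522a and miR5761a, and none of the 10 was called. The groups overlapped in all 10. miR396b-5p, which represses growth-regulating factors, had 13407, 18546 and 22921 TP5M in pods of weeks 1, 2 and 3, within a leaf range of 1529 to 23271 TP5M (difference 1.6 ± 0.85; limma adjusted p = 0.288). With new leaves only it was called higher (2.80; adjusted p = 0.0147).

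Several of the abundant sequences ranged widely among leaves. gso-miR3522a, a legume miRNA, had 273, 189 and 210.0 TP5M in pods of weeks 1, 2 and 3, against a lowest, median and highest leaf value of 260.2, 4556 and 36538 TP5M (difference -4.29 ± 1.28; limma adjusted p = 0.102). The lowest of these leaves was the new one at flower bud differentiation, which lay among the pods. Without that leaf gso-miR3522a was called lower (-5.11; adjusted p = 0.0102), as it was with germination and trefoil leaves only (-5.32; adjusted p = 0.0117) and with all 23 libraries in the fit (-4.29; adjusted p = 0.00636). miR5761a had 222, 289.9 and 373 TP5M in pods of weeks 1, 2 and 3, whereas leaves ranged from 0 to 58752 TP5M. miR398c, which represses copper superoxide dismutases, had 319, 441 and 424 TP5M in pods of weeks 1, 2 and 3, against 103 to 17319 TP5M in leaves (difference -2.3 ± 1.32; limma adjusted p = 0.333). With germination and trefoil leaves only, miR398c was called lower (-3.27; adjusted p = 0.0462). With those leaves M4779-5p (3.88; adjusted p = 0.00381) and miR2118a-5p (2.45; adjusted p = 0.0131) were called higher.

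**Figure D3:**
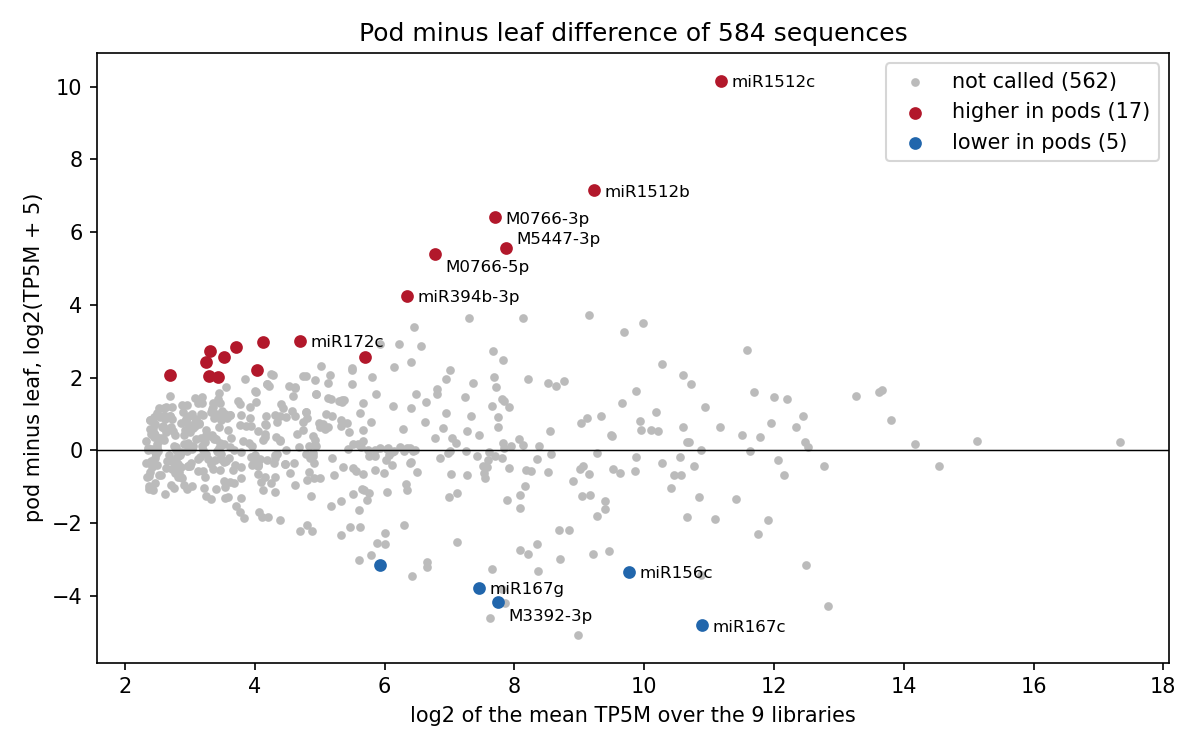
Pod minus leaf difference on the log2(TP5M + 5) scale (vertical axis) against log2 of the mean level over the 9 libraries (horizontal axis) for the 584 tested sequences, with the 17 called higher in red and the 5 called lower in blue. The 10 most abundant sequences, at the right, are not called, and range from M4779-5p at 1.67 to gso-miR3522a at -4.29.

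Among sequences of 22 nt with no family, 3 of the 107 tested were called higher in pods and none lower, a share near the 2.91% of all 584 sequences called higher. Of the 107, 95 had a positive difference, 34 had every pod above every leaf (31.8%, against 12.5% of all 584 sequences), and the median was 0.93. Over all 584 sequences 328 were positive. At an unadjusted p under 0.05 there were 44 of the 107, beside 124 of all 584 (21.2%). Their summed level was 2996.5, 3082.2 and 3098.5 TP5M in pods of weeks 1, 2 and 3. In the leaves it was 2633.8 TP5M in the new leaf at flower bud differentiation and 748.5 to 1406.8 TP5M in the 5 others. Pods thus averaged 3059.1 ± 54.8 TP5M and leaves 1277.1 ± 705.7 TP5M (SD, n = 3 and 6), with no overlap.

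These sequences did not come from 1 locus, and whether they share an origin was not tested. They came from 20 chromosomes, 78 of the 107 had a single locus, and 71 began with U. In 14 of them the reverse complement was also listed with identical values, and without those 83 of 93 were positive. For 76 of the 107 the highest leaf was the new one at flower bud differentiation. By comparison, 54 of the 90 sequences of 22 nt that belong to a family were positive (median 0.23), and 33 of the 86 sequences of 21 nt with no family were positive (median -0.18). The summed level of these 86 sequences was 6707.7, 6973.1 and 6069.0 TP5M in pods of weeks 1, 2 and 3, inside the leaf range of 2369.9 to 9357.1 TP5M.

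M5023-3p, on chromosome 14, was the most abundant of the 3 called, with 172, 97.5 and 92.2 TP5M in pods of weeks 1, 2 and 3, against a lowest, median and highest leaf value of 5.23, 15.5 and 34.9 TP5M (difference 2.57 ± 0.57; limma adjusted p = 0.0266). M7819-3p, on chromosome 20, had 32.1, 44.3 and 38.9 TP5M in pods of weeks 1, 2 and 3 and 1.03 to 14.7 TP5M in leaves (difference 2.2 ± 0.48; limma adjusted p = 0.0257). M5241-3p, on chromosome 14, had 35.4, 22.2 and 17.4 TP5M in pods of weeks 1, 2 and 3 and at most 3.49 TP5M in leaves (difference 2.03 ± 0.36; limma adjusted p = 0.00781). The M5023-3p and M7819-3p calls, and that of M6832-3p, were lost without any 1 of the pods, with adjusted p from 0.0791 to 0.159 and differences from 1.96 to 2.73. They were also lost without single leaves, the new leaves at trefoil and at germination for all 3, and an old leaf for M7819-3p (trefoil) and M6832-3p (flower bud differentiation), with adjusted p from 0.0505 to 0.0709. With edgeR on recovered reads M5023-3p, M7819-3p and M6832-3p were not called (adjusted p = 0.0974, 0.128 and 0.155). TMM factors added to edgeR, or a pseudocount of 1, lost all 3 too. A term for the 6 libraries that share sequences lost them (adjusted p = 0.0996, 0.0996 and 0.0949). So did a fit within those libraries (adjusted p = 0.12, 0.141 and 0.141). No filter lost M5023-3p and M7819-3p (adjusted p = 0.13 and 0.0502), and new leaves only lost M7819-3p (0.0686). The M5241-3p call held whichever single library was left out, and was lost with edgeR with TMM factors (3.19; adjusted p = 0.06) and within the 6 libraries that share sequences (2.01; adjusted p = 0.0602).

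**Figure D4:**
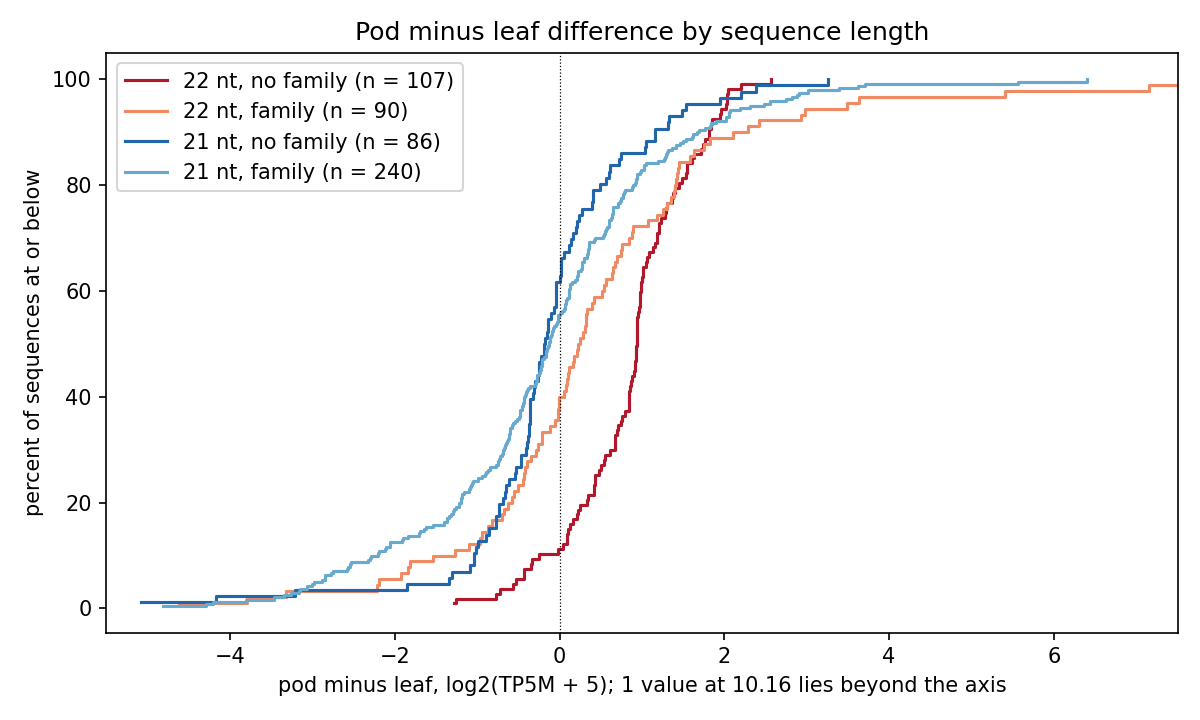
Cumulative percent of sequences (vertical axis) at or below each pod minus leaf difference on the log2(TP5M + 5) scale (horizontal axis) for 22 nt and 21 nt sequences with and without a family. The curve of the 107 sequences of 22 nt with no family lies to the right of the others around 0, with a median of 0.93.

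No share of the summed signal passed the test, which 1 share alone could not have passed. The test was an exact two-sided permutation over 84 arrangements of the 9 libraries, with a smallest possible p of 0.0238. Adjusted over 7 shares, a single share at that p has 0.167. None of the 7 had an adjusted p under 0.05. The share in sequences with a locus number only and no family was 2.17 ± 0.0861% in pods and 1.65 ± 0.386% in leaves (exact p = 0.0238, adjusted 0.167; SD, n = 3 and 6), with every pod above every leaf. The 22 nt share was 19.8, 17.5 and 15.1% in pods of weeks 1, 2 and 3, against 9.39 to 19.0% in leaves (exact p = 0.238, adjusted 0.667). miR159a-3p alone made up 37.8 ± 0.764% of the signal in pods and 34.8 ± 8.61% in leaves (exact p = 0.738).

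Paired arms of a hairpin mostly had differences of the same sign. Among 89 pairs of a 5p and a 3p sequence, in which a sequence with several loci can stand more than once, 64 pairs had the same sign, 20 had both beyond 1 in the same direction, and none had them beyond 1 in opposite directions. M0766 and M7631 were among the pairs with both arms on 1 side. M5974 was an exception to a shared change, with 2.55 on the 3p arm and -0.16 on the 5p arm, for which pods had 32.9, 23.1 and 17.4 TP5M in weeks 1, 2 and 3, against 10.5 to 70.6 TP5M in leaves.

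Leaves differed in how near they lay to pods. Over the 584 sequences, Pearson's r of each leaf with the mean of the pods on the log2 scale was 0.826 for the new leaf at flower bud differentiation and 0.643 to 0.756 for the other 5 leaves, while each pod had 0.907 to 0.946 with the mean of the other pods. These are descriptions across sequences, which are not independent replicates and share each library's depth. That leaf was the one nearest to the pods for 205 of the 584 sequences, and each of the others for 60 to 94. Without that leaf 61 sequences (10.4%) were called, 50 higher and 11 lower, including all 22. Without the week 3 pod or without the week 2 pod 14 (2.4%) were called, 13 higher and 1 lower in each case.

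A set of 6 libraries also shared sequences. The 3 pods, both leaves at flower bud differentiation and the old leaf at trefoil had 15 sequences that were listed in 4 or more of them and in no other library of the series. The labels do not say what else these libraries have in common. The set was picked from these data, and the same count was not made for other sets of 6. The set is not fully closed. At a summed level of 20 TP5M or more, 2 further sequences were listed in all 6, in the old cotyledon at trefoil and nowhere else. Within that set, 3 pods against 3 leaves, all 22 called sequences kept their direction, 9 were called and 13 were not, and 3 further sequences were called, 12 in all (2.05% of the 584). The median difference of all sequences within the set was -0.16, with 261 of 584 positive, and the 22 nt sequences with no family kept a median of 0.85 with 92 of 107 positive. The part of these libraries' shared content in the remaining calls was not tested.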

How the data were processed

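Small RNA of 15 to 30 nt was sequenced from 3 pod and 6 leaf libraries, per the labels' protocols. The authors deposited a signal table in TP5M (tags scaled to 5000000 per library, per the file headers). The submitters' processing notes name BWA, an aligner, without its role or version, and no genome build is given in the sources used here. Table columns were matched to libraries by the Sample number in the title; titles also hold a second, different number in brackets, and every value's library rests on the first being the column number. The 3933 entries were merged by sequence (maximum) into 2839. Low values were whole multiples of 1 tag: 11362 of 11362 (100.0%) values of up to 200 tags came within 0.1 of a whole number, which gave the tag totals.

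Pods were compared with leaves by limma 3.58.1 in R 4.3.3 on log2(TP5M + 5), with a trended prior, 7 residual degrees of freedom and Benjamini-Hochberg adjustment, for sequences with a mean of 5 or more. The test was first run on simulated data. edgeR 4.0.16 on the recovered tag counts called 12 sequences. Shares were compared by exact permutation tests. Alternatives were pseudocounts of 1 and 20, other filters, TMM, other library sets, summed entries and each library left out. Leaf replicates number the libraries in accession order and pair nothing.

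The members and family lists were chosen with earlier results of these data known. The rule for named sequences took the called sequences of each family or unnamed hairpin, the 10 most abundant, the 3 most abundant of each list, opposite arms, and relatives of called sequences. M5674-5p, M5084-5p and the miR319, miR397 and miR482 families were named after their values were seen.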

Additional observations from a re-analysis of the deposited data

Results flagged for a closer look

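Single libraries stood far from the other 5 leaves in 10 of 53 checks, all 10 of them for named sequences. The measure was the gap to the nearest leaf over the range of the 6 leaves on the log2 scale. Chance alone gives about 1 in 20 such groups of independent, normally distributed values. Members of 1 family, and sequences with most leaves at 0, are not such values. The old leaf at flower bud differentiation was high for M0766-5p (9.81 TP5M), miR1512a (0.98 TP5M, equal to 1 tag), M2670-3p (2355.7 TP5M) and miR159a-5p (2308.7 TP5M), the last 2 being products of miR159 hairpins. The senescent leaf was high for miR1512c (6.18 TP5M, the other leaves being at 0) and low for miR169a (6.18 TP5M) and miR169s (15.44 TP5M). The old leaf at trefoil was low for M3392-3p (33.65 TP5M) and high for M6832-3p (13.22 TP5M). miR156a was listed at 0 in the new leaf at trefoil and at 866 TP5M or more in the other leaves.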

How the results depend on the processing

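No pod or leaf library was repeated, 12 of the 17 sequences called higher had a leaf mean under 5 TP5M, where 1 tag is worth about 1 TP5M, and the pods were more alike than the leaves. No call reversed: of 1049 values over 46 named sequences and 23 alternatives, 944 kept their side of the threshold, 90 lost a call and 15 gained one, and 41 of the 944 changed sign with no call on either side. miR1512c, M0766-3p, M0766-5p, miR1512b, miR862b, miR5225 and miR167c were called under every alternative that could be run. Against 22 calls, there were 13 with a mean of 20 or more, 12 with edgeR on recovered reads and 11 with TMM factors added, 14 with a term for the 6 libraries that share sequences and 12 within them, 35 with new leaves only, 140 with germination and trefoil leaves only (109 higher, 31 lower), and 102 with all 23 libraries in the fit (75 higher, 27 lower). Leaving out 1 library gave 14 to 61. The numbers of calls in the lists under TMM, and the 7 shares with all sequences, without the most abundant sequence or without any 1 library, kept their side of the threshold. For the shares this carries no weight, since a single share could not reach the threshold. The causes were not tested. No paired analysis was possible because the replicate numbers follow accession order only.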
